A study of Homo sapiens with 32 samples.

Results

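The 46 genes described here encode the cyclins, kinases, phosphatases, motors, kinetochore proteins and cytokinesis proteins that carry a cell into and through mitosis. They were chosen by symbol among the protein-coding genes of both count tables, and all 46 were found, of 19815 protein-coding genes and 60554 genes in all. The RNA-Seq libraries hold mRNA of whole cells (T, total) and mRNA that sediments with several ribosomes in a sucrose gradient (P, polysomal) of MCF10A, a non-tumoural breast epithelial line, and of MDA-MB-231, a triple-negative breast cancer line. Cells were in normoxia (N, 21% O2) or in 24 hours of hypoxia (H, 0.5% O2), and the NPP (normoxia) and HPP (hypoxia) groups also received 2.5 μM PP242, an inhibitor of mTORC1 and mTORC2, for 3 hours. Cells without PP242 received the DMSO vehicle. Each of the 8 groups of a line had 2 biological replicates, which gave 32 libraries of 18340916 to 46032327 counts. The values are given as CPM, the deposited counts of a gene relative to the total of protein-coding counts in its library after that total was adjusted with a TMM factor, and a change (log2FC) was called at an adjusted p under 0.05 in the quasi-likelihood test of edgeR across all genes. CPM are shares of a library, so a change in the whole amount of mRNA, or of mRNA on polysomes, does not show in them. A rise or fall given below is relative to the other mRNAs of the same fraction.

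Entry into mitosis depends on CDK1 bound to cyclins A and B, after the CDC25 phosphatases have removed inhibitory phosphates from it. Polo-like and Aurora kinases then build the spindle, the spindle checkpoint delays anaphase until every kinetochore is attached, and CDC20 directs the anaphase-promoting complex (APC/C) to securin and the cyclins. The mRNAs of most of these genes accumulate in G2 and mitosis, and they are used in breast tumours as measures of proliferation. In bulk mRNA, fewer cells in G2 and mitosis and less mRNA per cell cannot be told apart.

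The labels were checked against known markers first. CA9, a hypoxia-induced carbonic anhydrase, was at most 26.9 CPM in the normoxic and at least 522 CPM in the hypoxic MCF10A libraries, and at most 1.02 against at least 13.0 CPM in MDA-MB-231. The other hypoxia-induced genes checked, NDRG1, ADM, VEGFA, BNIP3 and EGLN3, also separated the hypoxic from the normoxic MCF10A libraries (NDRG1 at most 330 against at least 1010 CPM, VEGFA at most 35.7 against at least 43.4 CPM). In MDA-MB-231, NDRG1 (at most 119 against at least 598 CPM), BNIP3 and EGLN3 did so, whereas ADM (up to 117 CPM in normoxia and from 67.3 CPM in hypoxia) and VEGFA overlapped. MCF10A libraries held the basal keratins KRT5 (1190 to 3270 CPM) and KRT14 (458 to 4200 CPM), which were at most 0.284 and 0.61 CPM in MDA-MB-231, and KRT17 (at least 48.5 against at most 6.36 CPM). LAMB3, another gene of that list, did not separate the lines (221 to 3340 CPM in MCF10A, 224 to 557 CPM in MDA-MB-231). However, the basal epithelial genes CDH1 and TP63 were near 0 in MCF10A (at most 0.361 and 0.225 CPM), where the mesenchymal genes VIM, TWIST1 and SPARC were present (at least 1690, 15.2 and 91.7 CPM). In MDA-MB-231, VIM and ZEB1 were present (at least 3110 and 43.6 CPM), while TWIST1 and SPARC were near 0 (at most 0.0288 and 0.795 CPM). PTPRC, a leukocyte gene, reached at most 0.101 CPM in MCF10A and 1.14 CPM in MDA-MB-231.

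Some MCF10A libraries stood apart in long and in short mRNAs. In the second NPP and the second HPP total libraries, CENPF (a kinetochore protein of 10290 bases of mRNA) had 28.6 and 33.4 CPM, against 261 and 207 CPM in the first libraries of the same groups. The second hypoxic total library stood apart in the same way. Over all genes, its difference from the first correlated with that of the NPP pair (r = 0.681) and of the HPP pair (r = 0.688). TOP2A, the topoisomerase that separates sister DNA, had 550.2 and 117 CPM in the first and the second NPP total library, and the short mRNA of UBE2C 183 and 357 CPM. Among the polysomal libraries, the short PTTG1 mRNA (715 bases, the securin that holds separase inactive) had 645 and 282 CPM in the normoxic pair. Results that rest on these libraries are given with this spread, and the part of transcript length in them was not tested.

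At baseline the mRNAs spanned a wide range of levels. In normoxic T, CPM per kilobase of transcript ran from 3.59 (ESPL1, separase) to 233 (PTTG1) in MCF10A, with a median of 25.7. In MDA-MB-231 it ran from 4.80 (HMMR, a microtubule-binding spindle protein) to 390.3 (UBE2C, the ubiquitin-conjugating enzyme of the APC/C), with a median of 61.8. The highest 4 per length were PTTG1, UBE2C, CDC20 and CCNB1 in both lines. Per length, CDC25A was low in both, at 5.48 and 14.2 CPM per kilobase.

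The levels in normoxic T were then compared between the lines. CPM elsewhere are scaled within a line, so those of MDA-MB-231 and MCF10A are on different scales. In the fit of all 32 libraries, the log2 ratio of MDA-MB-231 to MCF10A was shifted by -0.47 from that of the CPM within each line, and the CPM of this paragraph are on the scale of that fit. In MDA-MB-231, 12 members were called higher and 2 lower, with a median log2 difference of 0.44 over the 46, against -0.03 over all genes. The members called in either direction were 30.4% of the 46, below the 40.7% of all genes that were called, and 20.3% of all genes were called higher. NDC80, an outer kinetochore protein that binds microtubules, had 113 and 118 CPM in MDA-MB-231 and 41.3 and 33.0 CPM in MCF10A, a log2 difference of 1.63 (SE 0.27, adjusted p = 4.69e-05). The checkpoint kinase BUB1 (1.26), the centriole kinase PLK4 (1.25), the kinesin KIF2C (1.33) and CDK1 (0.78) were also called higher. In contrast, HMMR was called lower, with 14.4 and 10.42 CPM in MDA-MB-231 against 71.3 and 59.0 CPM in MCF10A (-2.39, SE 0.37), as was BIRC5 (147 and 168 against 237 and 281 CPM, -0.72), the survivin subunit of the chromosomal passenger complex (adjusted p = 0.0405). With RLE scaling, with DESeq2 or without a filter on low counts, only 1 member was called lower. Those called higher were then 17, 17 and 12, against 22.6%, 21.6% and 15.4% of all genes. The medium of MCF10A also held EGF, hydrocortisone, cholera toxin and insulin, which the methods do not list for MDA-MB-231. The counts of the lines came in separate tables. In every comparison of the lines, a difference in medium, or in how the libraries were made or sequenced, cannot be told apart from the line.

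The first comparison asks what 24 hours of hypoxia did to these mRNAs. In MCF10A, 45 of 46 members had a log2FC below 0 in T and 45 of 46 in P, with medians of -0.47 and -0.53 (all genes -0.03 and -0.07). Without a replicate block, no member was called in either fraction, where 1.54% (T) and 1.49% (P) of all genes were called, and 8 and 13 members had an unadjusted p under 0.05 (10.9% and 12.5% of all genes). DESeq2 called 0 and 2 members (3.70% and 3.97% of all genes), and edgeR with an offset for transcript length 3 and 4 (512 and 675 of 13124 genes). With the replicate number as a block within each fraction it called 0 and 3 (3.34% and 4.05%). Both hypoxic libraries lay below both normoxic ones for 34 members in T and 32 in P, against 26.8% and 20.3% of all genes. The mean log2 CPM over the members was 6.35 and 6.33 in the normoxic and 6.04 and 5.69 in the hypoxic T libraries, and 6.46 and 6.52 and 6.09 and 5.88 in P, so the groups did not overlap. The lower hypoxic value in T, 5.69, was that of the second library, which is among those that stood apart.

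**Figure D1:**
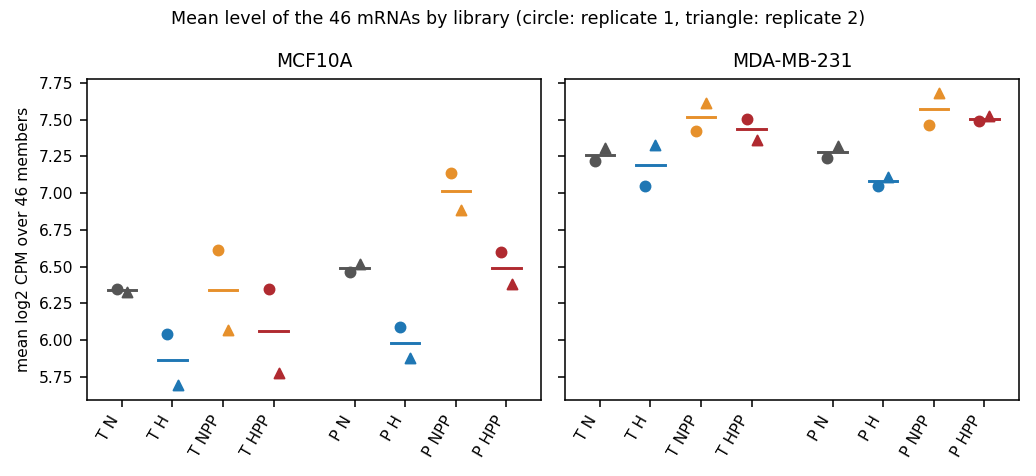
Mean log2 CPM of the 46 mRNAs in each library (y axis) by fraction and treatment (x axis), with a bar at the mean of the 2 libraries, a circle for replicate 1 and a triangle for replicate 2. The hypoxic MCF10A libraries lie below the normoxic ones in both fractions, and in MDA-MB-231 the NPP and HPP libraries lie above the normoxic ones.

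The values by role in hypoxic MCF10A were as follows. CDK1 had 146 and 128 CPM in normoxic T and 90.3 and 81.7 in hypoxic T, a log2FC of -0.67 (SE 0.27, adjusted p = 0.354). Cyclin B1 (CCNB1) had 226 and 216 against 157 and 143 CPM (-0.56), and cyclin A2 (CCNA2) 127 and 121 against 88.9 and 84.9 CPM (-0.51). In these 3 genes the hypoxic pair lay below the normoxic pair without overlap. Among the kinases, PLK1, which matures centrosomes, had 153 and 170.0 against 98.2 and 103.4 CPM (-0.68). AURKA, which acts at spindle poles, had 123 and 154 against 89.7 and 89.3 CPM (-0.63), and AURKB, the passenger complex kinase, 94.2 and 86.8 against 61.3 and 54.0 CPM (-0.65). Of the checkpoint genes, BUB1 had 67.8 and 67.1 against 48.5 and 39.8 CPM (-0.61) and MAD2L1, which sequesters CDC20, 116 and 112.3 against 77.1 and 76.5 CPM (-0.57). BUB3, a partner of BUB1 that is present throughout the cell cycle, had 237 and 224 against 229 and 213 CPM (-0.06), and its pairs overlapped. CDC20 had the lowest log2FC of the 46 in hypoxic T, with 260.0 and 286 against 157 and 157 CPM (-0.80, SE 0.36, adjusted p = 0.44). There were 6 alternative fits (DESeq2, RLE scaling, no filter on low counts, the replicate block over both or within each fraction, the length offset). PLK1 and CDC20 were each called in 1 of them in T. The pairs of other genes overlapped, such as MKI67, the gene of the Ki-67 antigen (139.5 and 129 against 147 and 64.3 CPM), CENPF (141 and 109.8 against 129 and 56.9), TOP2A (298 and 243 against 262 and 148) and the transcription factor FOXM1 (116 and 199.9 against 132 and 140.2).

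Polysomal mRNA of hypoxic MCF10A was compared in the same way. CDK1 had 226 and 179 CPM in normoxic and 132 and 100.2 in hypoxic P (-0.80, SE 0.27, adjusted p = 0.203), PLK1 179.6 and 195, then 117 and 110.9 (-0.72), and AURKA 188 and 182, then 115 and 97.8 (-0.79). The pairs of these 3 genes did not overlap. None of the 3 was called at the main settings, while AURKA was called in 2 of 6 alternative fits and CDK1 and PLK1 in 1 each. The lowest log2FC in P was that of SPC25, of the NDC80 kinetochore complex, with 95.4 and 56.6 against 50.4 and 30.6 CPM (-0.91, adjusted p = 0.208, or -0.41 without the first and -1.24 without the second normoxic library), followed by CDC20 with 553 and 393 against 317 and 201 CPM (-0.87, or -0.53 without the first normoxic and -1.16 without the first hypoxic library). The highest was ANLN, the anillin scaffold of the contractile ring, at 0.04, which ran from -0.18 to 0.41 without the first and the second normoxic library. SPC25 and CDC20 were each called in 1 of the 6 alternative fits in P.

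In hypoxic T of MDA-MB-231 the median log2FC was -0.05 with 31 of 46 members below 0, from -0.21 without the second to 0.088 without the first hypoxic library. No member was called with or without the replicate block within each fraction, where 1.27% of all genes were without it and 2.30% with it. Both hypoxic libraries lay below both normoxic ones for 10 members, against 20.2% of all genes. CDK1 had 326 and 324 against 267 and 411 CPM, PLK1 181 and 217 against 174 and 212 CPM, and CDC20 425 and 501 against 402 and 489 CPM, so these pairs overlapped. In P, 42 of 46 were below 0 with a median of -0.21 (all genes 0.01), and again no member was called without a replicate block (2.29% of all genes), with 8 members at an unadjusted p under 0.05 (17.2% of all genes), 1 called by DESeq2 (5.43% of all genes) and 1 with the replicate block within each fraction (4.74%). In P the hypoxic pair lay below the normoxic pair for 23 members, against 20.5% of all genes. TOP2A had 406 and 433 against 311 and 315 CPM there (-0.42, SE 0.15, adjusted p = 0.169) and cyclin B2 (CCNB2) 165 and 147 against 118 and 104.3 CPM (-0.48). The difference between the lines in the response to hypoxia was tested in the fit of both lines. It had a median of 0.44 over the members in T (MDA-MB-231 minus MCF10A, all genes 0.04) and 0.22 in P, where it was 0.12 without the second normoxic P library of MCF10A. No member was called for it by edgeR, where 0.266% (T) and 0.329% (P) of all genes were, and 6 and 1 members had an unadjusted p under 0.05 (7.47% and 6.49% of all genes). DESeq2 called 0 and 0 (0.870% and 0.940% of all genes).

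PP242 brought out a member that departed from the rest. CDC25A, the phosphatase that activates cyclin-dependent kinases from the G1/S transition onwards, fell under PP242 in T and in P of both lines, with and without hypoxia. Its gene lies on the minus strand of chromosome 3 (GRCh38, chr3:48157146-48188417, GENCODE v44). In MCF10A it had 17.5 and 24.7 CPM in normoxic T, 16.6 and 13.8 in hypoxia, 6.46 and 4.02 in NPP and 2.53 and 2.08 in HPP. The PP242 pairs lay below both other pairs without overlap, and the HPP mean was 10.9% of the normoxic mean. The log2FC was -2.003 (SE 0.32, adjusted p = 0.0228) under NPP and -3.19 (SE 0.34, adjusted p = 0.000245) under HPP. In P of the same line it had 17.7 and 24.3 CPM in normoxia, 12.2 and 16.1 in hypoxia, 6.02 and 5.04 in NPP and 2.30 and 1.87 in HPP. The polysomal log2FC were -1.93 (SE 0.32) and -3.33 (SE 0.34), close to those in T.

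In MDA-MB-231, CDC25A started higher (a log2 difference of 0.90 in normoxic T in the fit of both lines, SE 0.24, adjusted p = 0.004). On the scale within the line it was at 52.2 and 56.8 CPM in normoxic T and 49.8 and 45.01 in hypoxia. It had 24.2 and 22.5 CPM in NPP (-1.22, SE 0.15, adjusted p = 0.00149) and 15.6 and 16.6 CPM in HPP (-1.76, SE 0.15, adjusted p = 1.2e-05). In P the pairs were 50.5 and 66.5 (N), 52.8 and 49.1 (H), 25.5 and 23.9 (NPP) and 15.9 and 16.3 CPM (HPP), and the HPP mean was 27.6% of the normoxic one. The fall under HPP was larger in MCF10A than in MDA-MB-231. The log2 difference (MDA-MB-231 minus MCF10A) was 1.52 in T (SE 0.34, adjusted p = 0.0146) and 1.46 in P (SE 0.34, adjusted p = 0.018). Without a replicate block, CDC25A was the only member called for this difference in either fraction, where 3.31% (T) and 3.60% (P) of all genes were called. With the block within each fraction 2 and 3 members were called (7.41% and 9.23% of all genes), and with the length offset 2 and 3 (6.81% and 8.45%). With single libraries left out, the HPP calls within each line held in every fit, whereas the NPP calls of MCF10A did not (T without either normoxic library or without the second NPP library, P without the second normoxic or either NPP library). The call of the line difference was lost in T without the second normoxic or the second HPP library of MCF10A, or without either normoxic or the second HPP library of MDA-MB-231. In P it was lost without the second normoxic or the second HPP library of MCF10A, or without the first normoxic or either HPP library of MDA-MB-231, with adjusted p up to 0.109 in T and 0.115 in P.

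**Figure D2:**
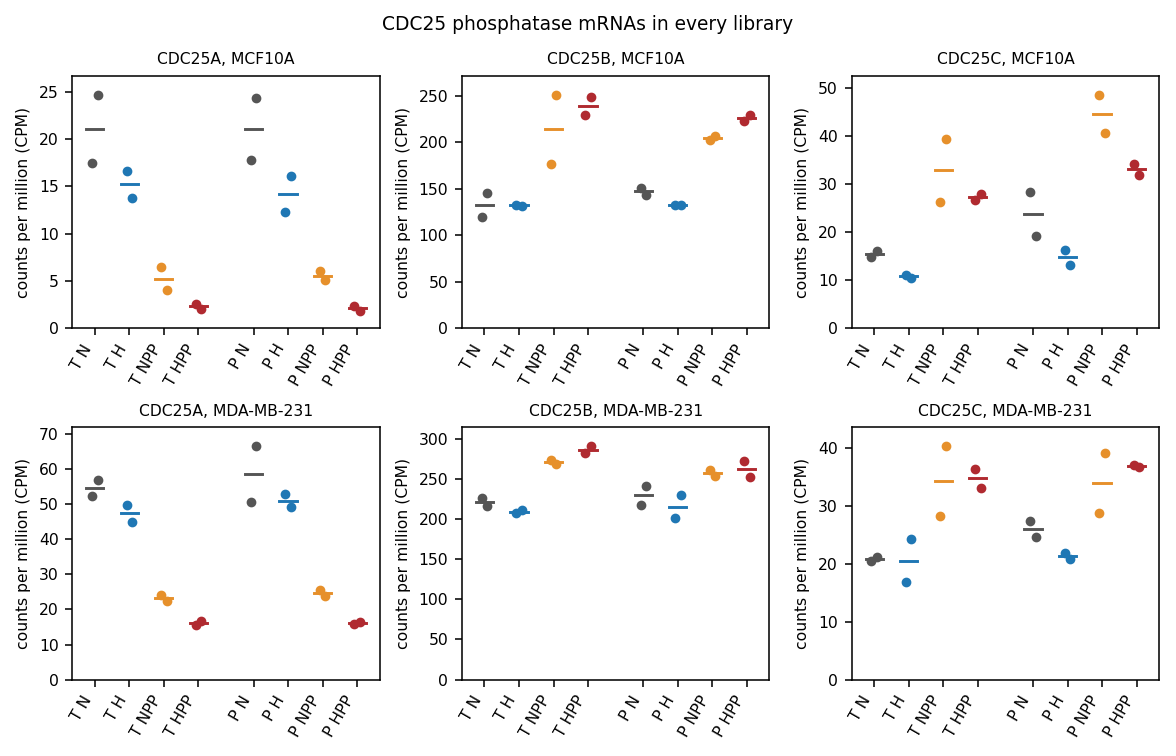
CPM of the 3 CDC25 phosphatase mRNAs in each library (points, y axis from 0) by fraction and treatment (x axis), with a bar at the mean of the 2 libraries, MCF10A above and MDA-MB-231 below. CDC25A falls under NPP and further under HPP in T and P of both lines, and the PP242 means of CDC25B and CDC25C lie above the normoxic ones.

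The other CDC25 phosphatases, which act on CDK1 at mitotic entry, were not called lower in any comparison. CDC25B in MCF10A T had 119 and 146 CPM in normoxia, 133 and 132 in hypoxia, 177 and 251 in NPP and 229 and 249 in HPP, and rose under HPP (log2FC 0.85, SE 0.22, adjusted p = 0.0223), a call that was lost whichever library of that comparison was left out (adjusted p up to 0.198). CDC25C in MDA-MB-231 T had 20.5 and 21.2 CPM in normoxia and 36.5 and 33.2 in HPP, and rose too (0.74, SE 0.20, adjusted p = 0.0281), and this call too was lost whichever library was left out (adjusted p up to 0.125). In MCF10A T, CDC25C had 14.8 and 16.1 CPM in normoxia and 26.7 and 27.9 in HPP, with an adjusted p of 0.0617.

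Many genes that peak in G2 and mitosis carry a CHR element and CCAAT boxes in their promoters, through which they are repressed and activated over the cell cycle, so the members' promoters were searched for these words. RefSeq (GRCh38.p14) gave 51 windows of 250 bases before to 50 bases after a start site for 39 of the 46 genes. The words searched on both strands were the CHR (TTTGAA or TTCGAA), the CCAAT box (CCAAT) and E2F words (TTTGGCGC, TTTCCCGC, TTTGCCGC and TTTCGCGC). A CHR word stood in 62.7% of the member windows and 16.4% of all 35116 windows, a CCAAT word in 74.5% and 34.6%, and both in 51.0% and 6.4%. An E2F word stood in 7.8% and 3.3%, in the windows of CDC25A, CDK1 and CENPA. The CDC25A window held an E2F and 2 CCAAT words and no CHR word, and 9 other members also had no CHR word (AURKB, CCNA2, CCNB1, CENPE, KIF20A, KIF2C, NEK2, PTTG1 and SPC24). BIRC5, FOXM1, BUB3, AURKA, TTK, UBE2C and TPX2 had no entry. Stretches of 70 bases upstream of the start site are shown for CDC25A and for 5 other members described here, with the words above in capitals, 5′ to 3′ on the strand of the gene. They lie at chr3:48188442-48188511 (minus strand), chr5:138331815-138331884 (minus), chr5:163460560-163460629 (plus), chr12:53268218-53268287 (plus), chr16:23678810-23678879 (plus) and chr1:43358866-43358935 (plus), in the order printed. CHR and CCAAT words can overlap where they adjoin. A match is a description of letters and not a site.
CDC25A: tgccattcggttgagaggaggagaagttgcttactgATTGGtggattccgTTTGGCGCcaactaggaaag
CDC25C: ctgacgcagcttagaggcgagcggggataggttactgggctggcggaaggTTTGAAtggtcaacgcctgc
HMMR: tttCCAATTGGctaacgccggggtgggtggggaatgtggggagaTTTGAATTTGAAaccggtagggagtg
ESPL1: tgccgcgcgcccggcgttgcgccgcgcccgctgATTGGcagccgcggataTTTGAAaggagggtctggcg
PLK1: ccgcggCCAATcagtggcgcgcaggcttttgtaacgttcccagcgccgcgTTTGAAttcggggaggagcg
CDC20: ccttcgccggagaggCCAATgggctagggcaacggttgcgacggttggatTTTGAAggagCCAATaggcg

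Apart from CDC25A, the members called under PP242 in MDA-MB-231 all rose as a share of their library. The paper reports that PP242 in normoxia strongly inhibited translation, and a smaller pool of polysomal mRNA would not show in these shares. Under NPP in T, CENPF was called higher and CDC25A lower (0.555% of all genes called, or 4 members and 1.34% of all genes with the replicate block within each fraction, 9 and 2.16% with DESeq2, and 8 and 1.68% without a filter on low counts), and the median log2FC of the 46 was 0.26 (all genes -0.01). In P, 6 were called higher, against 0.762% of all genes called higher and 1.95% called at all, and with the block 7 were called higher (3.61% of all genes called at all). Both NPP libraries lay above both normoxic ones for 29 members in T and 24 in P, against 18.8% and 22.0% of all genes. Under HPP, 8 members were called higher in T and 8 in P, against 6.31% and 9.71% of all genes called higher (13.2% and 19.4% called at all). Without a filter on low counts, 14 were called higher in P under HPP (10.5% of all genes) and 10 in P under NPP (1.64%). The HPP pair lay above the normoxic pair for 20 members in T and 24 in P, against 25.9% and 33.0% of all genes. The medians under HPP were 0.19 in T and 0.20 in P (all genes -0.05 and 0.01), and the median in T was 0.12 without the first normoxic and 0.33 without the second HPP library.

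Besides CDC25C, 9 members rose under PP242 in MDA-MB-231. HMMR had the largest log2FC in P, with 11.8 and 8.81 CPM in normoxic P, 10.0 and 9.71 in hypoxia, 27.1 and 20.6 in NPP and 21.1 and 26.6 in HPP (NPP 1.21, SE 0.23, adjusted p = 0.0101; HPP 1.21, adjusted p = 0.00251). CENPF had 162 and 161 CPM in normoxic P, 138 and 148 in hypoxia, 317 and 367 in NPP and 274 and 312 in HPP (NPP 1.09, SE 0.14, adjusted p = 0.00072). Neither pair under PP242 overlapped a pair without it. CENPF also rose in T under NPP, from 186 and 190.0 to 278 and 360.2 CPM (0.76), and under HPP, to 302 and 300.0 CPM (0.68). CENPE, the kinetochore kinesin that moves chromosomes to the spindle equator, had 76.7 and 80.8 CPM in normoxic P and 143 and 137 in HPP (0.83, adjusted p = 0.00332). ESPL1 had 26.7 and 37.0, then 56.7 and 59.2 CPM (0.86, adjusted p = 0.00907). These levels under HPP were also above the hypoxic pairs, 65.5 and 59.98 for CENPE and 23.9 and 30.7 CPM for ESPL1. The checkpoint kinase TTK (MPS1) rose in P under NPP (0.70) and in T and P under HPP (0.48 and 0.61), as did ANLN (0.63, 0.61 and 0.71). KIF20A, a kinesin of the central spindle, rose in T and P under HPP (0.61 and 0.67), the spindle pole protein ASPM in P under NPP (0.86), and TOP2A in P under HPP, from 406 and 433 to 599 and 665 CPM (0.59, adjusted p = 0.0151). With single libraries left out, the HPP calls in P of HMMR, CENPF and CENPE held in every fit, and that of ANLN in 3 of 4, while those of ESPL1, TTK and KIF20A held in 1 of 4 and that of TOP2A in none. The HPP calls in T held in 3 of 4 fits for CENPF, in 2 for HMMR and ANLN, in 1 for CENPE, KIF20A and TTK, and in none for ESPL1. TTK in T under HPP ran from 0.32 without the first HPP to 0.74 without the second HPP library. Under NPP, the calls in P held in 4 fits for CENPF, in 3 for CENPE, in 2 for HMMR and ASPM and in none for TTK and ANLN, and that of CENPF in T held in 1. The number of members called ranged from 1 (without the second normoxic library) to 8 in T under HPP, from 4 (without the first HPP library) to 10 in P under HPP, and from 3 (without the first NPP library) to 5 in P under NPP.

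**Figure D3:**
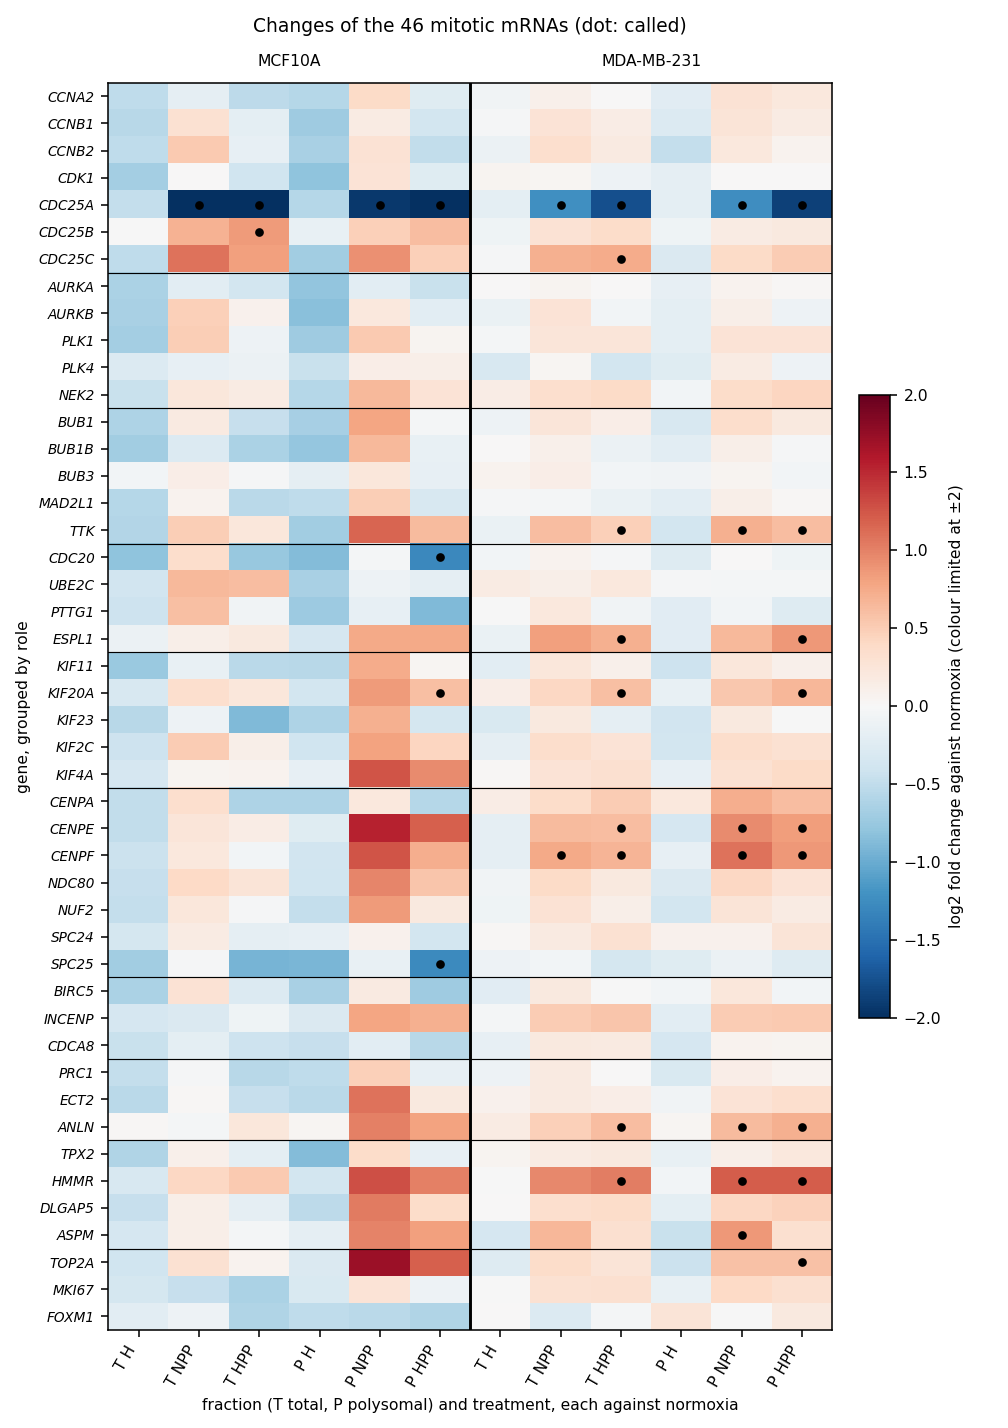
Log2FC against normoxia (colour, limited at 2 in either direction) of the 46 mRNAs (y axis, grouped by role) by fraction and treatment (x axis), with a dot where the change was called. CDC25A is blue with a dot in all 8 PP242 columns, the hypoxia columns of MCF10A are pale blue with no dot, and the other dots in MDA-MB-231 are all on red cells.

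The cyclins, CDK1, PLK1 and the Aurora kinases were not called against normoxia under PP242 in MDA-MB-231 at the main settings. CDK1 had 326 and 324 CPM in normoxic T, 329 and 336 in NPP and 335 and 273 in HPP. CCNB1 had 367 and 432, 427 and 542, then 471 and 413 CPM, and CCNA2 334 and 325, 353 and 350.3, then 349 and 317 CPM in the same groups. The normoxic and HPP pairs of these 3 genes overlapped, while the NPP pairs of CDK1 and CCNA2 lay above the normoxic ones. In P, CCNA2 had 380.5 and 355 CPM in normoxia, 442 and 461 in NPP and 416 and 437 in HPP, and CCNB1 565 and 511, 579 and 705, then 598 and 610.4. Both PP242 pairs of these cyclins lay above the normoxic pair in P, as did the HPP pair of PLK1 (289 and 258 against 202 and 252 CPM), whereas the pairs of CDK1 overlapped. The log2FC of CCNB1 under HPP was 0.15 with an SE of 0.19, so changes of that size were not detectable here. PLK1 had 181 and 217 CPM in normoxic T and 249 and 221 in HPP, AURKA 245 and 287, then 294 and 241, and AURKB 185 and 198, then 178 and 190.5. BUB1 had 224 and 222, then 274 and 214 CPM, MAD2L1 208 and 224, then 213 and 182, and BUB3 549 and 583, then 554 and 539.6. For MKI67 the pairs were 235 and 293, then 294 and 369 CPM, for FOXM1 209 and 299, then 237 and 258, and for CDC20 425 and 501, then 471 and 444. The lowest log2FC under HPP after CDC25A belonged to PLK4 (-0.36 in T, 128 and 118 against 107.6 and 84.0 CPM), SPC25, a kinetochore protein of the NDC80 complex (-0.35 in T, 44.5 and 53.7 against 37.9 and 38.8 CPM, and -0.25 in P, 77.6 and 68.1 against 58.3 and 63.8 CPM), and PTTG1 (-0.25 in P, 400.1 and 320.3 against 298 and 307 CPM). With single libraries left out, PLK4 ran from -0.50 to -0.12 (without the first and the second HPP library) and SPC25 from -0.48 to -0.22 in T (without the first and the second normoxic library) and from -0.34 to -0.089 in P (without the second and the first normoxic library). The value of PTTG1 was -0.014 without the first normoxic library and turned to 0.043 with the length offset. None of these was called.

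In MCF10A, few members besides CDC25A were called under PP242, and in both directions under HPP. Under NPP, in the fit without a replicate block, CDC25A was the only member called in T (0.648% of all genes) and in P (0.823%). The labels state no shared origin of the replicate numbers between treatments. Same-numbered MCF10A total libraries deviated together, whereas the NPP polysomal libraries did not deviate with the other polysomal ones. With the replicate number as a block within each fraction, which includes those NPP libraries, 2 members were called in T under NPP (1.70% of all genes) and 11 in P (5.07%). In P, DESeq2 called 6 (5.24% of all genes) and the fit with a length offset 6 (5.67%). The median log2FC over the 46 was 0.15 in T (-0.093 without the first NPP library, 0.26 without the second) and 0.51 in P (all genes 0.02 and -0.04). By edgeR, 4 members in T and 16 in P had an unadjusted p under 0.05 (9.54% and 13.3% of all genes). Both NPP libraries lay above both normoxic ones for 8 and 27 members, against 15.1% and 24.2% of all genes. Without the second NPP and HPP total libraries, an alternative chosen after seeing the data, CDC25A was not called in T under NPP (-1.71, adjusted p = 0.089) and remained called under HPP (-3.03, adjusted p = 0.00142). Under HPP, CDC25A fell and CDC25B rose in T, where 14.9% of all genes were called. With the replicate block within each fraction there were 6 calls in T, 4 lower and 2 higher, and 10 in P, 3 lower and 7 higher, where 26.5% and 36.5% of all genes were called. In P, CDC25A, CDC20 and SPC25 fell and KIF20A rose, against 11.9% of all genes called lower and 22.2% called at all. The HPP pair lay below the normoxic pair for 18 members in T and 10 in P, against 32.3% and 31.3% of all genes, and above it for 5 in T and 17 in P, against 29.0% and 30.5%. The median log2FC was -0.14 in T and -0.08 in P (all genes -0.01 and -0.04). It ran from -0.39 without the first to 0.028 without the second HPP library in T, and from -0.17 to 0.10 in P without the first and the second HPP library.

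The cyclins and main kinases of MCF10A were not called under PP242 at the main settings. Their calls in the alternative fits are not given. CDK1 had 146 and 128 CPM in normoxic T, 151 and 125 in NPP and 121 and 87.2 in HPP, and CCNB1 226 and 216, 219 and 326, then 191 and 196. PLK1 had 153 and 170.0, 165 and 288, then 133 and 168 CPM, and CCNA2 127 and 121, 128 and 90.1, then 95.9 and 76.6. In T the NPP pairs of these 4 genes overlapped the normoxic pairs, and the HPP pairs of CDK1, CCNB1 and CCNA2 lay below them. In P the HPP pairs of all 4 overlapped the normoxic ones, and the NPP pairs of PLK1 (286 and 255 against 179.6 and 195 CPM) and CCNA2 (217 and 158 against 129.5 and 157 CPM) lay above them.

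CDC20 in MCF10A P had 553 and 393 CPM in normoxia, 317 and 201 in hypoxia, 512 and 408 in NPP and 210.5 and 176 in HPP (HPP -1.29, SE 0.36, adjusted p = 0.0247). SPC25 had 95.4 and 56.6, 50.4 and 30.6, 68.5 and 68.8, then 34.2 and 28.6 CPM in the same order (HPP -1.27, SE 0.31, adjusted p = 0.0128). In both genes the HPP pair lay below the normoxic and NPP pairs and overlapped the hypoxic pair. The call of CDC20 was lost without any of 3 of the 4 libraries compared and that of SPC25 without 2 of them (adjusted p up to 0.201 and 0.172), and the log2FC of SPC25 was -0.79 without the first normoxic library. KIF20A had 132 and 132, 105.4 and 99.9, 265 and 210.2, then 194 and 207 CPM (HPP 0.60, SE 0.19, adjusted p = 0.0428, lost without any of the 4 libraries). The KIF20A call held in 4 of 6 alternative fits, and no member was called higher with RLE scaling or without a filter on low counts. The highest log2FC in P under HPP belonged to TOP2A (1.195) and CENPE (1.198), followed by HMMR (1.00), none of which was called at the main settings. TOP2A and HMMR were each called in 1 of the 6 alternative fits, and CENPE in none. TOP2A had 146 and 257 CPM in normoxic P, 749 and 575 in NPP and 443 and 479 in HPP, CENPE 17.6 and 29.1, 74.7 and 61.7, then 57.7 and 49.5, and HMMR 48.3 and 57.4, 139 and 118, then 109.2 and 102.7. The PP242 pairs of all 3 lay above the normoxic pair in P, while in T the NPP pair of TOP2A (550.2 and 117 CPM) spanned the normoxic one (298 and 243). In T under HPP the lowest after CDC25A were SPC25 (-0.94, 35.8 and 34.3 against 18.4 and 18.2 CPM) and the cytokinesis kinesin KIF23 (-0.88, 121 and 100.8 against 80.1 and 40.5 CPM), and the third highest was UBE2C (0.62, 173 and 171 against 239 and 288 CPM). None of these 3 was called at the main settings, but SPC25 was called in 3 of 6 alternative fits and KIF23 in 1. The log2FC of UBE2C ran from 0.35 to 0.69 over the alternative fits. KIF23 ran from -1.36 without the first to -0.47 without the second HPP library.

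**Figure D4:**
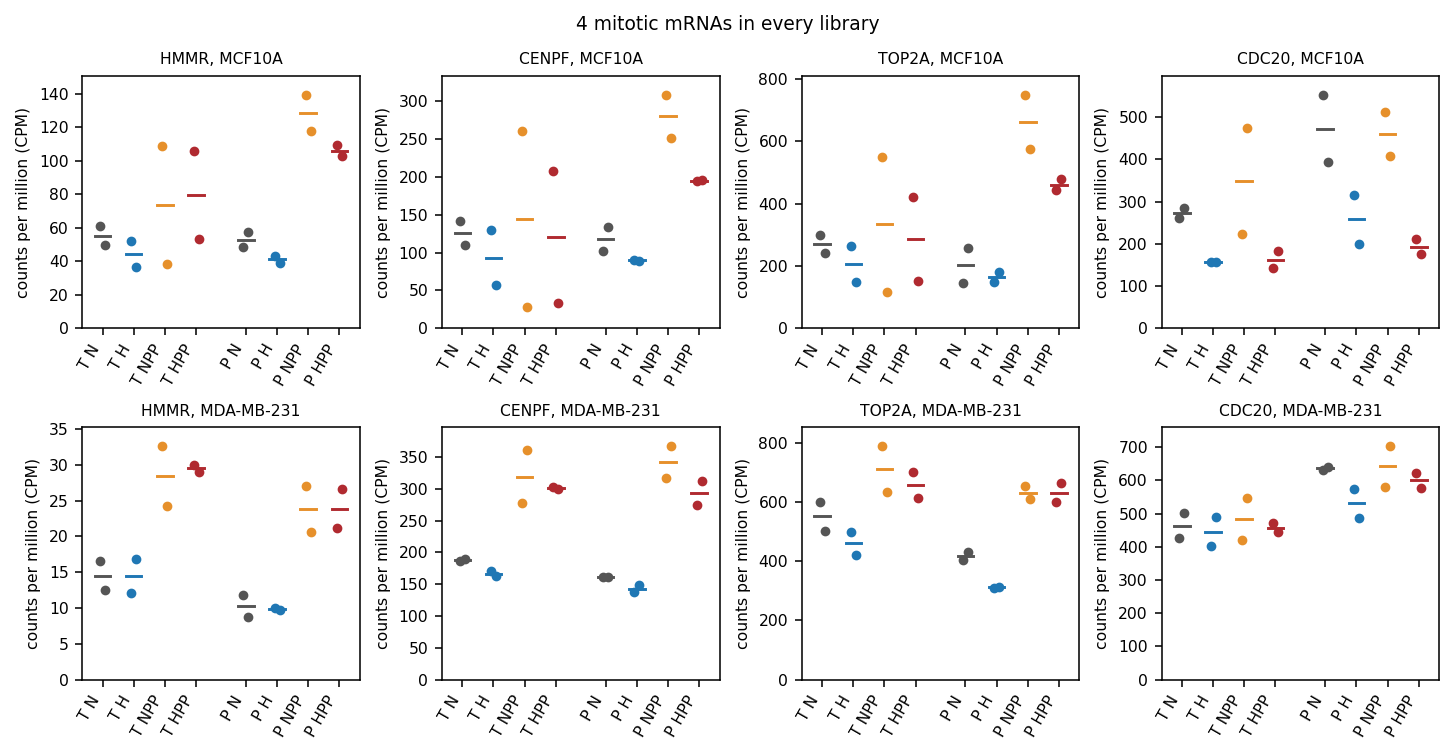
CPM of HMMR, CENPF, TOP2A and CDC20 in each library (points, y axis from 0) by fraction and treatment (x axis), with a bar at the mean of the 2 libraries, MCF10A above and MDA-MB-231 below. In MCF10A the NPP and HPP total pairs of CENPF and TOP2A are far apart, and CDC20 in P is lowest under HPP. In MDA-MB-231 the PP242 pairs of HMMR and CENPF lie above the others.

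The comparison of HPP with H gives the effect of PP242 in cells that were already hypoxic. In MDA-MB-231, 17 members rose and CDC25A fell in P, against 4.86% of all genes called higher and 11.5% called at all, with a median log2FC of 0.44 over the 46 (0.0015 over all genes). The 17 were HMMR (1.27), CENPE (1.16), ESPL1 (1.09), CENPF (1.03), TOP2A (1.01), TTK (0.98), KIF20A, CDC25C, ASPM, INCENP, KIF2C, ANLN, DLGAP5, KIF4A, BUB1, KIF11 and CCNA2 (0.44). In T, TTK, ESPL1, CENPE, CENPF, HMMR and ASPM rose and CDC25A fell, against 1.70% of all genes called higher and 3.78% called at all. With the replicate block within each fraction 12 members were called there (7.12% of all genes), and with DESeq2 13 (8.13%). With single libraries left out, the calls in P ranged from 7 (without the first HPP library) to 12 (without the second H library), and those in T from 1 (without the second H library) to 6 (without the first). In P the calls of CDC25A, HMMR, CENPE, ESPL1, CENPF, TOP2A and TTK held in all 4 fits, those of KIF20A, ASPM and KIF2C in 2, those of ANLN and INCENP in 1 and those of CDC25C, DLGAP5, KIF4A, BUB1, KIF11 and CCNA2 in none. In T the call of CDC25A held in all 4 fits, those of CENPE and CENPF in 2, those of TTK, ESPL1 and ASPM in 1 and that of HMMR in none. In MCF10A, CDC25A fell in T (-2.72) and P (-2.76), and CDC25C rose in both (1.33 and 1.17), from 11.1 and 10.6 to 26.7 and 27.9 CPM in T. KIF20A (0.97) and KIF2C (0.82), which removes tubulin from microtubule ends, rose in P. The call of KIF2C held in 3 of 6 alternative fits and that of KIF20A in 5. The share of all genes called was 3.74% in T and 6.50% in P, with 2.63% called higher in P. The medians over the 46 were 0.29 in T (-0.015 without the first HPP library, 0.47 without the second) and 0.62 in P (all genes -0.003 and -0.01). By edgeR, 9 members in T and 17 in P had an unadjusted p under 0.05 (15.8% and 21% of all genes). With the replicate block within each fraction 4 members were called in T and 16 in P (8.79% and 14.9% of all genes). In MCF10A without the block, only the CDC25A calls were kept with every library left out in turn.

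Translational efficiency (Te) is the change in P beyond that in T, and its test was the interaction term between fraction and treatment. No member was called for it by edgeR under any treatment in either line, and no member had an unadjusted p under 0.05. DESeq2 also called none, but it gave an adjusted p to only 853 and 3167 genes in MCF10A under NPP and HPP and to 4690 in MDA-MB-231 under NPP, so its count there says little of the members. In MCF10A, 0%, 0% and 0% of all genes were called for Te under H, NPP and HPP, with 23, 296 and 433 of 13124 genes at an unadjusted p under 0.05. In MDA-MB-231 the shares were 0.0148%, 0.340% and 0.696%, with 180, 295 and 454 of 13510 genes at an unadjusted p under 0.05. The median Te change over the members of MCF10A was -0.06 under H (-0.12 without the second and 0.055 without the first hypoxic total library), 0.43 under NPP (0.22 without the second NPP total library, 0.58 without the first) and 0.23 under HPP (0.081 and 0.39 without the second and the first HPP total library). Over all genes of MCF10A these medians were -0.04, -0.005 and 0.05. In MDA-MB-231 the median over the members was -0.17 under H, with 39 of 46 members below 0 (all genes 0.01). It ran from -0.30 without the first to -0.042 without the second hypoxic total library. Under NPP and HPP it was 0.02 and 0.05 in that line, near the 0.02 and 0.06 of all genes. Its sign turned with single libraries (-0.11 without the second and 0.13 without the first NPP polysomal library, -0.085 without the second and 0.15 without the first HPP total library). The total and polysomal library of a treatment and replicate share a number in their titles, and with that number as a replicate block, an alternative chosen after seeing the data, edgeR again called no member for Te in either line. In MCF10A the Te change ran from -0.77 (PTTG1) and -0.75 (UBE2C) to 1.30 (CENPE) and 1.41 (TOP2A) under NPP.

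These Te values moved with transcript length, taken from a single annotated transcript of each gene. Spearman's correlation of length with the Te change under NPP was 0.709 over the 46 members and 0.489 over all genes in MCF10A. The values for MDA-MB-231 were 0.479 and 0.219. The points share libraries, so these are descriptions. In MCF10A the T values under NPP moved the other way, with -0.451 over the members and -0.4 over all genes, and T enters Te with the opposite sign. In MDA-MB-231 they were 0.21 and -0.0561. For the polysomal log2FC under NPP, the 12 shortest members (up to 2093 bases) had a median of 0.18 and the 12 longest (from 4136 bases) of 1.00 in MCF10A. In MDA-MB-231 these medians were 0.10 and 0.50. Genes of the same lengths in the whole table had -0.16 and 0.04 in MCF10A, against -0.05 and 0.03 for MDA-MB-231. CDC25A, with 3844 bases, lay far below both sets. Length also moved with the P to T ratio in normoxia, with -0.805 over the members in MCF10A (all genes -0.377) and -0.665 in MDA-MB-231 (-0.178). In that baseline comparison UBE2C, a short mRNA, was called higher in P in MDA-MB-231 (0.66, adjusted p = 0.0436), the only member called (13.1% of all genes), and without a replicate block no member was called in MCF10A (0% of all genes), where 9 had an unadjusted p under 0.05 (12.6% of all genes). The counts moved with the fit. The replicate block within each fraction called 9 members in MCF10A (16.7% of all genes) and 10 in MDA-MB-231 (21.9%), the length offset 3 and 7 (2.85% and 20.8%), and DESeq2 0 and 7 (0.784% and 20.5%). With the title number as a replicate block, no member was called in MCF10A and 1 in MDA-MB-231, lower in P, so UBE2C was not. The lowest P to T ratio in both lines was that of FOXM1 (MCF10A -0.94, MDA-MB-231 -0.90). The part of length in the values of single members was not tested, and a fit with a length offset kept CDC25A called in T and P under NPP and HPP in both lines.

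**Figure D5:**
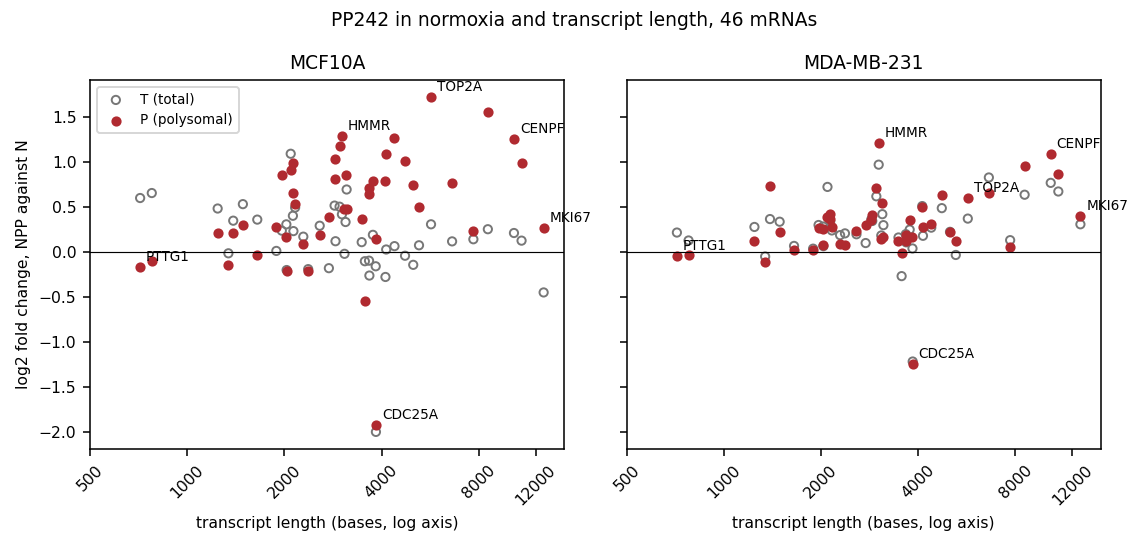
Log2FC under NPP against normoxia (y axis) by transcript length in bases (x axis, log scale) for the 46 mRNAs, in T (open grey) and P (filled red), with 6 genes named at their P value. In MCF10A the long mRNAs such as TOP2A and CENPF are higher in P than in T, and CDC25A is the lowest point in both lines.

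Further mitotic genes outside the 46 were counted as neighbours of the pathway (17 APC/C subunits and activators, 19 of condensins and cohesin, 29 kinetochore proteins, 20 other kinesins and spindle proteins, and 24 regulators of mitotic entry). Under HPP in MCF10A, 10 were called lower and none higher in T (9.17% of the list, against 7.47% of all genes called lower and 14.9% called at all), and 17 lower and none higher in P (15.6%, against 11.9% and 22.2%). Their medians were -0.40 and -0.28. The largest in T was GSG2 (HASPIN, the histone H3 kinase at centromeres), with 13.0 and 18.2 CPM in normoxia and 4.67 and 4.87 in HPP (-1.71, SE 0.28, adjusted p = 0.00224), a gene without introns inside another gene, whose reads the unstranded libraries cannot separate from its host. MIS12, a kinetochore protein, had 48.3 and 50.1, then 19.7 and 15.1 CPM (-1.50), and the cell cycle transcription factor E2F4 101.3 and 112.3, then 35.2 and 42.8 CPM (-1.45). In each of these 3 genes the HPP pair lay below the normoxic one. In MDA-MB-231, 6 were called lower and 2 higher in T (7.34% of the list, against 13.2% of all genes), and 9 lower and 6 higher in P (13.8%, against 19.4%). The largest in T were LIN52, a subunit of the MuvB complex that binds CHR words (23.2 and 22.4, then 12.8 and 12.7 CPM, -0.84), MAD1L1, the checkpoint partner of MAD2L1 (56.4 and 68.0, then 95.0 and 98.7 CPM, 0.64), and the APC/C subunit ANAPC5 (165 and 191, then 123 and 116 CPM, -0.57). Under hypoxia alone, all but 8 of them had a log2FC below 0 in MCF10A T, where 53.2% of all genes did, and none was called by edgeR, with 12 at an unadjusted p under 0.05 (10.9% of all genes). In P of hypoxic MDA-MB-231, 2 were called higher and none lower (1.83% of the list, against 2.29% of all genes). In the comparison of HPP with H, 16 were called in P of MDA-MB-231 (14.7% of the list, against 11.5% of all genes). There were 14 called higher, against 4.86% of all genes, and 2 lower, against 6.62%. Of these, CDC26 and E2F4 fell and the others rose.

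The mean of the members' standardised group means was correlated with each gene over the 8 group means of a line, which share libraries, and each member is part of that mean. In MCF10A the closest members were TPX2 (r = 0.978), which brings AURKA to the spindle, and BUB1 (0.974), and in MDA-MB-231 NDC80 (0.987) and KIF2C (0.983). The members with negative values in both lines were CDC25A (MCF10A -0.218, MDA-MB-231 -0.781) and FOXM1 (-0.41 and -0.262). Genes outside the lists came at least as close, such as DEPDC1B (0.996) and UPF3B (0.992) in MCF10A and, for MDA-MB-231, LIPG (0.991). Of the 46, 14 (30.4%) were called in at least 1 of the 12 comparisons with normoxia and 32 in none, where 37.2% of the 12374 genes tested in both lines were called at least once. CDC25A was called in 8 of the 12 and CENPF in 4. For KIF4A and PTTG1, which have near-identical copies, the copies KIF4B and PTTG2 held at most 27 and 7 counts in any library, against at least 596 and 4369 for the genes themselves.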

How the data were processed

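Total and polysomal mRNA of both lines was sequenced from unstranded TruSeq libraries. The authors aligned the reads with STAR 2.5.1b and deposited expected counts per gene estimated with RSEM 1.2.28, in a table for each line. The methods name GRCh38 with GENCODE v24 and the submitters' processing notes name GRCh37, so no coordinate was read from the tables. Gene positions are from GENCODE v44 and promoters from RefSeq (GRCh38.p14). Transcript lengths are those of the Ensembl canonical transcript of each gene in GENCODE v44, or of the longest where that was missing. This need not be the transcript that these cells express.

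These deposited expected counts are whole numbers and were used as they stand. Protein-coding genes that passed filterByExpr (13124 in MCF10A, 13510 in MDA-MB-231, 14298 in the fit of both lines) were scaled by TMM and tested with the quasi-likelihood F test of edgeR 4.0.16 (R 4.3.3) over the 16 libraries of a line, with Benjamini-Hochberg adjustment over all genes tested. Te was the interaction of fraction and treatment, and line differences were contrasts in a fit of all 32 libraries, which were scaled together. All 46 members passed the filter. With 2 libraries a group, p-values rest on the spread pooled over the groups, and a permutation test of a single gene cannot go below 0.333. Same-numbered libraries of MCF10A deviated together from their group means in T (r from 0.283 to 0.778 over 6 pairs of groups) and among N, H and HPP in P (0.311 to 0.635 over 3), and those of MDA-MB-231 did among N, H and NPP (0.155 to 0.282 in T, 0.25 to 0.347 in P), so a fit with the replicate number as a block is given beside the comparisons whose count of calls it moved most.

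The genes given by library were 14 by role, the 3 members with the lowest and the 3 with the highest log2FC under HPP in each line and fraction, members called opposite to most, and in each line the 3 other mitotic genes with the largest called change in T under HPP. Those beyond this rule were named after their values were seen. The members and lists were chosen with earlier results of these data known. The alternatives were DESeq2 1.42.0, RLE scaling, no filter, an adjusted p under 0.10, a replicate block (also by the title number that a total and a polysomal library share), an offset for transcript length and single libraries left out. The labels give biological replicates without saying how the cultures were separated.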

Additional observations from a re-analysis of the deposited data

Results flagged for a closer look

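The response to HPP differed between the lines for 1 member in T and 1 in P, which was CDC25A in both fractions, against 3.31% and 3.60% of all genes called. With the replicate block within each fraction it differed for 2 and 3 members (7.41% and 9.23% of all genes). The test was the contrast of both lines' HPP effects in the fit of all 32 libraries by edgeR. The log2 difference (MDA-MB-231 minus MCF10A) was 1.52 in T (adjusted p = 0.0146) and 1.46 in P (adjusted p = 0.018), with a lower level under HPP in every library of each line. The call was lost in 5 of the 8 fits that left out a library, in T and in P. The counts of the lines came in separate tables, and a difference in handling or in the culture medium cannot be told apart from the line.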

How the results depend on the processing

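Each group had 2 libraries. CDC25A stayed called under HPP in T and P of both lines in every alternative and with every library left out. The counts of members called moved with the settings, and the moves that were largest in proportion are listed here. Smaller moves are left out for most settings, such as 23 rather than 18 in MDA-MB-231 P HPP-H with DESeq2. DESeq2 called 3 rather than 1 in MCF10A T NPP, 4 rather than 2 in MCF10A T HPP, 2 rather than 0 in MCF10A P H, 6 rather than 1 in MCF10A P NPP, 4 rather than 2 in MCF10A T HPP-H, 12 rather than 4 in MCF10A P HPP-H, 9 rather than 2 in MDA-MB-231 T NPP, 1 rather than 0 in MDA-MB-231 P H, 13 rather than 7 in MDA-MB-231 T HPP-H and 7 rather than 1 in MDA-MB-231 P-T N. With RLE scaling there were 3 rather than 1 in MDA-MB-231 P-T N. Smaller moves with RLE scaling were 3 rather than 4 in MCF10A P HPP and also in MCF10A P HPP-H. In MDA-MB-231 T there were 10 rather than 9 under HPP and 9 rather than 7 in HPP-H. In MDA-MB-231 P there were 6 rather than 7 under NPP and 17 rather than 18 in HPP-H. The comparison of the lines in normoxic T had 18 rather than 14. At an adjusted p under 0.10 there were 4 rather than 2 in MCF10A T HPP, 2 rather than 1 in MCF10A P NPP, 9 rather than 4 in MCF10A P HPP-H, 6 rather than 2 in MDA-MB-231 T NPP and 7 rather than 1 in MDA-MB-231 P-T N. Without a filter on low counts there were 1 rather than 2 in MCF10A T HPP, 2 rather than 4 in MCF10A P HPP-H, 8 rather than 2 in MDA-MB-231 T NPP, 11 rather than 7 in MDA-MB-231 P NPP, 15 rather than 9 in MDA-MB-231 P HPP and 5 rather than 1 in MDA-MB-231 P-T N. With the transcript length offset there were 3 rather than 0 in MCF10A T H, 2 rather than 1 in MCF10A T NPP, 5 rather than 2 in MCF10A T HPP, 4 rather than 0 in MCF10A P H, 6 rather than 1 in MCF10A P NPP, 7 rather than 4 in MCF10A P HPP, 5 rather than 2 in MCF10A T HPP-H, 13 rather than 4 in MCF10A P HPP-H, 3 rather than 0 in MCF10A P-T N, 4 rather than 2 in MDA-MB-231 T NPP, 1 rather than 0 in MDA-MB-231 P H, 7 rather than 1 in MDA-MB-231 P-T N, 2 rather than 1 in the line difference T HPP and 3 rather than 1 in the line difference P HPP, and PTTG1 in MDA-MB-231 P under HPP turned to a log2FC of 0.0427. ANLN in hypoxic MCF10A, near 0 in T and P, turned to -0.0542 and -0.0222 with it, to -0.0273 and -0.00357 with the replicate number as a block over both fractions, and to -0.0774 in T with the replicate block within each fraction. With the second NPP and second HPP total libraries of MCF10A both removed, a choice made after seeing the data, there were 0 rather than 1 in MCF10A T NPP. Apart from the construction of each setting, the cause was not tested.

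Between treatments, replicate numbers have no stated shared origin. Deviations of same-numbered libraries correlated from 0.283 to 0.778 over 6 pairs of groups within T of MCF10A and from 0.311 to 0.635 over the 3 pairs among N, H and HPP within P. In MDA-MB-231 they correlated from 0.155 to 0.282 (T) and 0.25 to 0.347 (P) over the 3 pairs among N, H and NPP. In these sets, which were picked from the correlations themselves, the numbers were taken to pair the samples. The remaining pairs within a fraction ran from -0.187 to 0.232, with 1 of 3 over 0.1 in T and 1 of 3 in P of MDA-MB-231 and 0 of 3 in P of MCF10A. For both replicate blocks, the moves that were largest in proportion are listed. Smaller ones are left out, such as 12 rather than 9 in MDA-MB-231 P HPP, or 13 with the block within each fraction. With the replicate block over both fractions, 4 rather than 2 members were called in MDA-MB-231 T NPP and 12 rather than 7 in MDA-MB-231 T HPP-H. In MDA-MB-231 P-T N there were 3 rather than 1. With the replicate block within each fraction, there were 2 rather than 1 in MCF10A T NPP, 6 rather than 2 in MCF10A T HPP, 3 rather than 0 in MCF10A P H, 11 rather than 1 in MCF10A P NPP, 10 rather than 4 in MCF10A P HPP, 4 rather than 2 in MCF10A T HPP-H, 16 rather than 4 in MCF10A P HPP-H, 9 rather than 0 in MCF10A P-T N, 4 rather than 2 in MDA-MB-231 T NPP, 1 rather than 0 in MDA-MB-231 P H, 12 rather than 7 in MDA-MB-231 T HPP-H, 10 rather than 1 in MDA-MB-231 P-T N, 2 rather than 1 in the line difference T HPP and 3 rather than 1 in the line difference P HPP. Total and polysomal libraries with 1 title number correlated from -0.25 to 0.214 in MCF10A and from 0.00239 to 0.348 in MDA-MB-231 over 4 treatments each. With the replicate block by title number, chosen after seeing the data, no member was called for Te in either line, as without it, and 0 and 1 were called in the normoxic comparison of P with T in MCF10A and MDA-MB-231, although the call of UBE2C was lost.

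With single libraries left out, the counts ranged from 0 to 3 in MCF10A T NPP, 1 to 1 in MCF10A T HPP, 1 to 1 in MCF10A T HPP-H, 0 to 1 in MCF10A P NPP, 1 to 3 in MCF10A P HPP, 1 to 2 in MCF10A P HPP-H, 1 to 2 in MDA-MB-231 T NPP, 1 to 8 in MDA-MB-231 T HPP, 0 to 2 in MDA-MB-231 P-T N, 1 to 6 in MDA-MB-231 T HPP-H, 3 to 5 in MDA-MB-231 P NPP, 4 to 10 in MDA-MB-231 P HPP, 7 to 12 in MDA-MB-231 P HPP-H, 0 to 1 in the line difference T HPP and 0 to 1 in the line difference P HPP. In hypoxic MCF10A the log2FC ranged from -1.144 to 0.0325 (CENPF), -1.062 to 0.119 (MKI67) and -0.556 to 0.230 (FOXM1) in T, and from -0.633 to 0.234 (MKI67) and -0.571 to 0.166 (TOP2A) in P. The highest values came without the second hypoxic T library for CENPF and MKI67, the second normoxic T library for FOXM1, and the second normoxic P library in P. ANLN ranged from -0.40 to 0.33 (T) or -0.18 to 0.41 (P), and BUB3 from -0.35 to 0.075 in P.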
